A study of Mus musculus with 6 samples.

Results

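Hemoglobin and erythroid genes were read in long RNA from whole mouse brain, as 5 genes chosen by symbol: the alpha globin genes Hba-a1 and Hba-a2, the beta globin genes Hbb-bs and Hbb-bt, and Alas2. They are 5 of the 55450 genes listed in each count table, and all 5 passed the filter on low counts that left 21237 genes for testing. The 6 libraries come from total mouse brain, 3 from animals labelled TRMT1L KO and 3 from animals labelled WT. TRMT1L is a protein related to the tRNA methyltransferase TRMT1. The labels call the libraries biological triplicates. They give no strain, age, sex or knockout allele and do not say whether blood was washed out of the brain. RNA was selected above 200 bp and sequenced with a TruSeq total RNA kit. Levels are given as CPM, the count of a gene per 10 to the sixth counts of its library after TMM scaling. The markers of brain cells were abundant, with WT means of 1713 CPM for Snap25 of neurons, 3539 CPM for Slc1a2 of astrocytes and 1831 CPM for Mbp of oligodendrocytes.

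Hemoglobin is the oxygen carrier of red blood cells, built from a pair of alpha chains and a pair of beta chains, each holding a heme group. Its genes are switched on late in red cell development by erythroid transcription factors such as GATA1 and KLF1, and the messages persist in young circulating red cells after the nucleus is lost. Alas2 encodes the erythroid form of 5-aminolevulinate synthase, the enzyme that starts heme synthesis, while Alas1 encodes the form used in other tissues. In unperfused brain these messages come in large part from blood in the vessels, and hemoglobin RNA has also been described in some neurons and glia. In bulk RNA, fewer red cells and less hemoglobin RNA per cell cannot be told apart.

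Each chain is encoded by a pair of near-identical genes, which sets what the counts can hold. Hba-a1 (ENSMUSG00000069919.7) and Hba-a2 (ENSMUSG00000069917.7) lie on chromosome 11 of GRCm38, at chr11:32283511-32284465 and chr11:32296489-32297298 on the plus strand. Hbb-bs (ENSMUSG00000052305.6) and Hbb-bt (ENSMUSG00000073940.3) lie on chromosome 7, at chr7:103826534-103828096 and chr7:103812524-103813996 on the minus strand. Each has 3 exons. Alas2 (ENSMUSG00000025270.13) lies on the X chromosome at chrX:150547375-150570638 on the plus strand and has 11 exons. In GENCODE M21 the 426 coding bases of the alpha genes differ at 1 position, C381T (Hba-a1 base, coding position counted from 1 at the start codon, Hba-a2 base), an identity of 99.77%. The 441 coding bases of the beta genes also differ at 1 position, C417T (Hbb-bs base first), likewise 99.77% identical. The stretches that carry these differences are shown because they are what lets a read be assigned to one copy, with the differing base in capitals. The alpha stretches cover coding bases 351 to 411, at chr11:32284313-32284373 for Hba-a1 and chr11:32297130-32297190 for Hba-a2, and the beta stretches coding bases 381 to 441, at chr7:103826668-103826728 for Hbb-bs and chr7:103812659-103812719 for Hbb-bt.
Hba-a1: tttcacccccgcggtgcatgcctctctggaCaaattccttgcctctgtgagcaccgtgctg
Hba-a2: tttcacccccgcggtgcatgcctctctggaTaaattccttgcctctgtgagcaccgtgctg
Hbb-bs: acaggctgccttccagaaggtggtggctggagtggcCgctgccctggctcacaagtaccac
Hbb-bt: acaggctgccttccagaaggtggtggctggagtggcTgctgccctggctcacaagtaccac

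Reads that match both copies equally are left out of these counts. Of the 600 stretches of 100 bases in the main Hba-a1 transcript, 100 (16.67%) occur in no other gene, and these are exactly the stretches that cover the C381T position. For Hba-a2 the number was 116 of 455 (25.49%), for Hbb-bs 198 of 529 (37.43%), for Hbb-bt 273 of 604 (45.2%), and for Alas2 all 1938. The read length is not given in the sources used here. At 50 bases the unique share was 7.692% for Hba-a1 and at 150 bases 22.36%, while the 198 and 273 unique stretches of the beta genes did not depend on the length. Whether reads were paired is not given either. On this measure the counts of Hba-a1 rest on a single base of its transcript. The search covered annotated transcripts and the upstream windows of the members, not the genome.

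**Figure D1:**
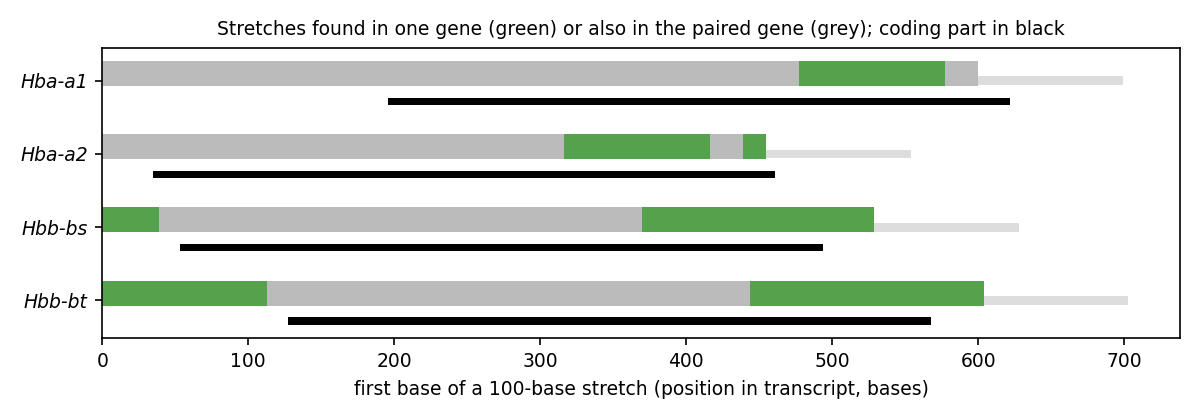
Each row is the main transcript of 1 hemoglobin gene, with the position of the first base of a 100-base stretch on the horizontal axis; green stretches occur in that gene alone, grey ones also in its pair, thin pale bars complete the transcript and black bars mark the coding part. Unique stretches number 100 in Hba-a1, 116 in Hba-a2, 198 in Hbb-bs and 273 in Hbb-bt.

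The promoters are shown to describe the genes. Whether their motifs bear on the levels across these libraries was not tested. RefSeq windows on GRCm38.p6 were searched from 250 to 11 bases before the start of transcription, on both strands, for GATAA (GATA factors), CACCC (Kruppel-like factors), CCAAT and TATAA, none of which contains another. The windows of Hba-a2 (chr11:32296242-32296481, plus strand) and Hbb-bs (chr7:103827939-103828178, minus strand) follow, with every match in capitals.
Hba-a2: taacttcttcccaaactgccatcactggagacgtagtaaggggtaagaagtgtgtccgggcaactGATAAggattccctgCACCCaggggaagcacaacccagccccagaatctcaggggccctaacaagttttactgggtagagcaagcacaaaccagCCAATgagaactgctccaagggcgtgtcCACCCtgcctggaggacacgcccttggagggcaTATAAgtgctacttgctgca
Hbb-bs: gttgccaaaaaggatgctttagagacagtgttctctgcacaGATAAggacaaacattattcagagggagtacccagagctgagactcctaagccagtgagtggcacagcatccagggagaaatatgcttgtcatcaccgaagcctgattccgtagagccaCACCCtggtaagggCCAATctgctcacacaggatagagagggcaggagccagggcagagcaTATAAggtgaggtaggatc

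All 4 hemoglobin promoters held all 4 motifs, which 0.883% of the 32851 promoter windows of this length did. TATAA began 30 bases before the start in Hba-a2 and 29 bases before it in Hbb-bs, and CCAAT 91 and 76 bases before it. GATAA alone was found in 22% of all windows, CACCC in 50.6%, CCAAT in 33% and TATAA in 22.4%. The whole RefSeq windows of Hba-a1 and Hba-a2, which hold 300 bases and run on to 50 bases after the start, share an identical run of 297 bases. The Alas2 window held matches of every motif but CCAAT, which had 0. A match is a run of letters and not a binding site.

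Counts in genes on the strand used ranged from 31201119 to 36145961 per library. In WT 1, WT 2 and WT 3 the targeted gene Trmt1l had 1279, 1034 and 1158 counts, and in KO 1, KO 2 and KO 3 it had 93, 101 and 106, so the gene matched the labels in all 6. Fold changes of the 5 genes and the ratio of alpha to beta are also given without WT 3 and KO 1 together, a setting chosen after seeing the data.

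The alpha genes come first, with values always in the order WT 1, WT 2, WT 3 and KO 1, KO 2, KO 3. Hba-a1 had 38.3, 34.5 and 51.3 CPM in the WT libraries, and the KO libraries had 90.2, 36.1 and 66.3 CPM. KO 1 and KO 3 lay above every WT library, and KO 2 lay among the WT libraries. Hba-a2 had 10.1, 8.23 and 11.4 CPM in the WT libraries, and the KO libraries had 20.6, 7.93 and 14.1 CPM. Its libraries fell in nearly the same order, with KO 2 now lowest of all.

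The beta genes followed. Hbb-bs, which had the highest counts of the 5, reached 60.7, 59.9 and 78.1 CPM in the WT libraries, and the KO libraries reached 122.8, 48.6 and 90.6 CPM. KO 1 and KO 3 were again the highest and KO 2 the lowest. Hbb-bt had 3.11, 2.42 and 2.67 CPM in the WT libraries, and the KO libraries had 4.49, 1.84 and 2.99 CPM. It was the one member in which a WT library, WT 1, lay above KO 3. Its values rest on 62 to 156 counts per library.

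Alas2, whose enzyme starts the synthesis of the heme, had 4.12, 3.99 and 5.74 CPM in the WT libraries, and the KO libraries had 9.32, 3.83 and 6.9997 CPM, from 125 to 324 counts. The libraries ran from KO 1 through KO 3, WT 3, WT 1 and WT 2 to KO 2, which is also the order of Hba-a2 and Hbb-bs. For all 5 genes the WT and KO libraries overlapped. The highest library exceeded the lowest by between 2.43-fold (Alas2) and 2.62-fold (Hba-a1).

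**Figure D2:**
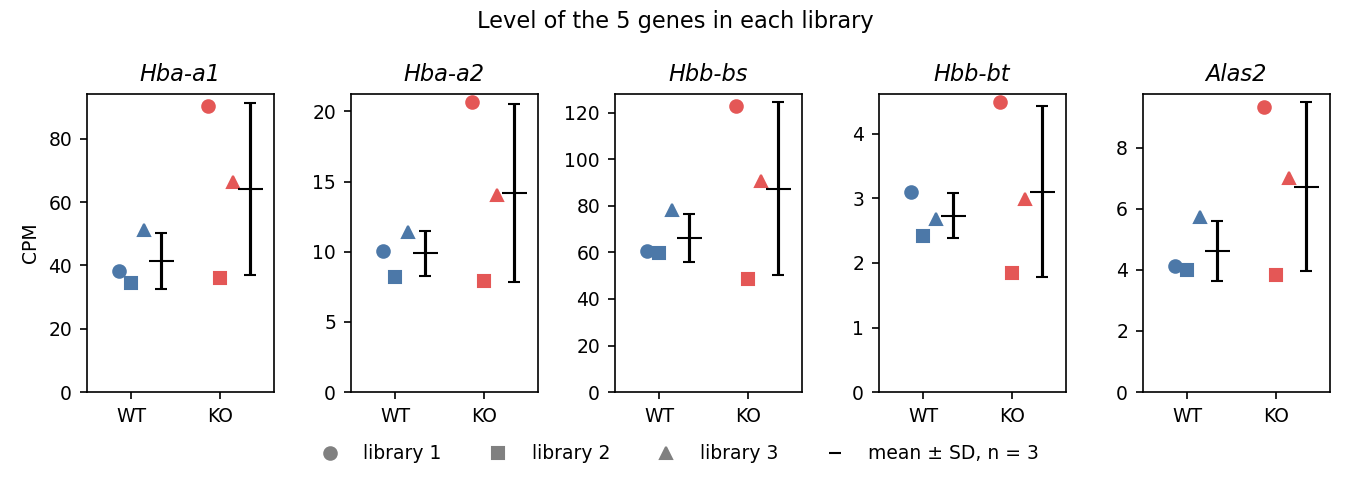
Each panel is 1 gene, with CPM on a linear axis from 0; points are libraries (circle, square and triangle for libraries 1, 2 and 3) and the bar beside them is the mean ± SD of 3. In every panel KO 1 is highest, KO 2 lies at or near the bottom, and the KO libraries spread wider than the WT libraries.

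Levels were compared between genes per kilobase of annotated exon, as means over the 6 libraries. Hbb-bs reached 99.96 CPM per kilobase, Hba-a1 65.0, Hba-a2 18.1, Hbb-bt 4.15 and Alas2 2.36. On this scale Hbb-bs exceeded Hbb-bt 24.1-fold and Hba-a1 exceeded Hba-a2 3.597-fold. The order of the main alpha and beta copies depends on the scale. Per 100 unique 100-base stretches, Hba-a1 had 52.8 CPM and Hbb-bs 38.8 CPM, whereas per kilobase Hbb-bs exceeded Hba-a1 1.54-fold. Per unique stretch the ratio within the beta pair was 36.2-fold and that within the alpha pair 5.08-fold, the latter between 4.95-fold at 150 bases and 5.78-fold at 50 bases. Hba-a1 and Hbb-bs were the predominant copies of their pairs on each of these scales. Hba-a1 made up between 79.2% (WT 1) and 82.5% (KO 3) of alpha counts and Hbb-bs between 95.1% (WT 1) and 96.8% (KO 3) of beta counts. Hbb-bs counts per Hbb-bt count ran from 19.5 in WT 1 to 30.3 in KO 3, a range of 1.55-fold.

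The genotype comparison asked whether these messages differ in TRMT1L KO brain, and none of the 5 genes passed the test. By edgeR's quasi-likelihood test, with p-values adjusted over all genes (Benjamini-Hochberg), 0 of the 5 were under 0.05. Of all 21237 genes tested, 2 did (0.00942%), namely Trmt1l and Gm37893, a feature inside a Trmt1l intron. Hba-a1 had a WT mean of 41.4 ± 8.84 CPM and a KO mean of 64.2 ± 27.1 CPM (SD, n = 3). Its log2 fold change was 0.64 (SE 0.250, 95% interval 0.089 to 1.18, edgeR adjusted p = 0.6). Hba-a2 had means of 9.90 ± 1.604 and 14.2 ± 6.35 CPM, a log2 fold change of 0.52 (SE 0.257, interval -0.042 to 1.08, edgeR adjusted p = 0.643). For both alpha genes the spread among the KO libraries exceeded the difference between the means. For Hbb-bs the means were 66.2 ± 10.3 and 87.3 ± 37.2 CPM and the log2 fold change 0.40 (SE 0.240, interval -0.13 to 0.93, edgeR adjusted p = 0.708).

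Hbb-bt had means of 2.73 ± 0.345 CPM in WT and 3.11 ± 1.33 CPM in KO and a log2 fold change of 0.18 (SE 0.257, interval -0.38 to 0.74, edgeR adjusted p = 0.884). Alas2 had means of 4.62 ± 0.977 and 6.72 ± 2.76 CPM and a log2 fold change of 0.54 (SE 0.260, interval -0.025 to 1.11, edgeR adjusted p = 0.634). Without adjustment 1 of the 5 genes, Hba-a1, had a p-value under 0.05, where 7.92% of all genes did and 4.54% did with a higher mean in KO. The limma-voom fit also called 0 of the 5, and DESeq2 called 0, with an adjusted p for Hba-a1 and Hbb-bs alone. All 5 fold changes were above 0 with a median of 0.52, while 50.1% of all genes tested lay above 0 with a median of 0.00013. The 5 genes were read from the same 6 libraries and are not 5 independent observations. A p-value above the threshold does not show that the groups are alike, since the intervals reach up to 1.18 on the log2 scale.

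The size of the difference moved with single libraries, most with KO 1 and KO 2. Among WT libraries, leaving out WT 3 gave a log2 fold change of 0.82 for Hba-a1. For Hbb-bt it was 0.29 without WT 1 and 0.105 without WT 2. Without KO 1 the log2 fold change of Hba-a1 was 0.31, of Hba-a2 0.15, of Hbb-bs 0.072 and of Alas2 0.23, and that of Hbb-bt changed sign to -0.18. Without KO 2, the lowest, they were 0.92, 0.80, 0.69 and 0.82, and 0.44 for Hbb-bt. With WT 3 and KO 1 both left out they were 0.50, 0.27, 0.21 and 0.42, and -0.19 for Hbb-bt. The summed CPM of the 5 genes was 1.41 times as high in KO as in WT by the group means. It was 1.12 times as high without KO 1, 1.72 times without KO 2 and 1.56 times without WT 3. Without WT 3 and KO 1 it was 1.24 times as high. None of the 5 passed the threshold in any of these fits. With no filter on low counts, 4 of the 5 did, as did 298 of the 37245 genes tested in that fit (0.8%). There edgeR's adjusted p for Hba-a1 was 3.19e-21, against 0.368 to 0.861 in the other 14 alternatives by edgeR, DESeq2 or limma-voom. The prior degrees of freedom of that fit came out as infinite, while the value was 7.53 after filtering.

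**Figure D3:**
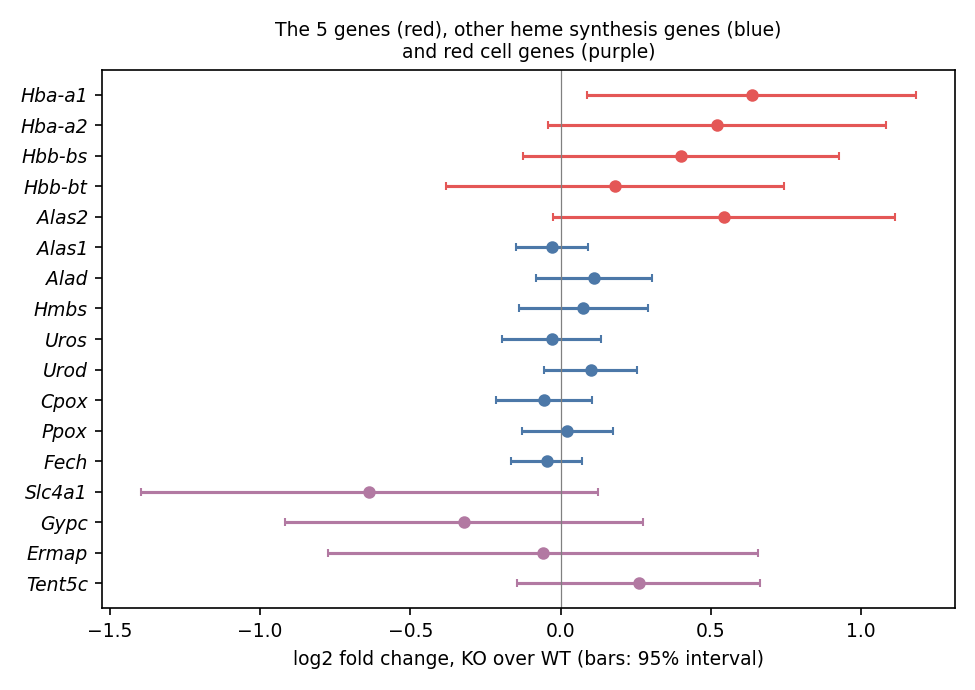
Points are log2 fold changes of KO over WT with 95% intervals from edgeR's quasi-likelihood fit, for the 5 genes (red), the other 8 genes of heme synthesis (blue) and 4 red cell genes chosen after their values were seen (purple). The intervals of 4 of the 5 red points reach 0, and Alas2 lies to the right of all 8 blue points, which span -0.056 to 0.11.

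These genes varied more within the groups than most genes did. The within-group SD of log2 CPM was 0.52 for Hba-a1, 0.52 for Hba-a2, 0.51 for Hbb-bs, 0.46 for Hbb-bt and 0.50 for Alas2. The median over the 17301 tested genes with a mean of at least 1 CPM was 0.098. Among those genes Hba-a1 lay at percentile 99.2 and Hbb-bt, the lowest of the 5, at percentile 98.8. The spread was larger among KO libraries, with an SD of 0.67 for Hba-a1 against 0.30 in WT, and 0.68 for Hbb-bs against 0.22. That difference between the groups was not tested.

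The 5 genes varied together. Hemoglobin counts summed over the 4 genes made up 112.1, 105.1 and 143.5 CPM in the WT libraries, and the KO libraries had 238.1, 94.5 and 173.9 CPM. The mean was 120.2 ± 20.5 CPM for WT and 168.9 ± 72.0 CPM for KO (SD, n = 3). Over that 2.52-fold range of levels, the number of hemoglobin counts per Alas2 count varied 1.10-fold. It was 27.2, 26.4 and 25.0 in the WT libraries, and the KO libraries had 25.5, 24.7 and 24.8. Alas2 thus kept nearly the same proportion to hemoglobin in each of the 6 libraries. As a description over 6 libraries, log2 CPM of Alas2 and Hba-a1 correlated with r = 0.996 and that of Alas2 and Hbb-bs with r = 0.983. The lowest value among the 10 pairs was 0.805, for Hba-a1 and Hbb-bt.

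Genes outside the 5 with the most similar profile were sought by the root mean square difference between centred log2 CPM and the mean of the 4 hemoglobin genes over the 6 libraries. Alas2 lay at 0.104, nearer than any of the 17296 other genes with a mean of at least 1 CPM. Hbb-bt, although part of that mean, lay at 0.176, with 2 other genes nearer. The 5 nearest of the 17296 were Tmem51 (0.170), Rassf6 (0.170), Gkn3 (0.189), Tent5c (0.198) and the antisense transcript AU022754 (0.207), where the median over the 17296 genes was 0.449. Tmem51, Rassf6, Gkn3 and AU022754 had only 31 to 114 counts per library. These are the extremes of a search over 17296 genes and 6 libraries. How near a gene comes by the search alone was not tested. Tent5c encodes a poly(A) polymerase that is active in red cell development. It had 6.02, 5.84 and 5.93 CPM in the WT libraries, and the KO libraries had 8.49, 4.66 and 8.11 CPM. KO 1 and KO 3 were high and KO 2 low, as in hemoglobin.

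**Figure D4:**
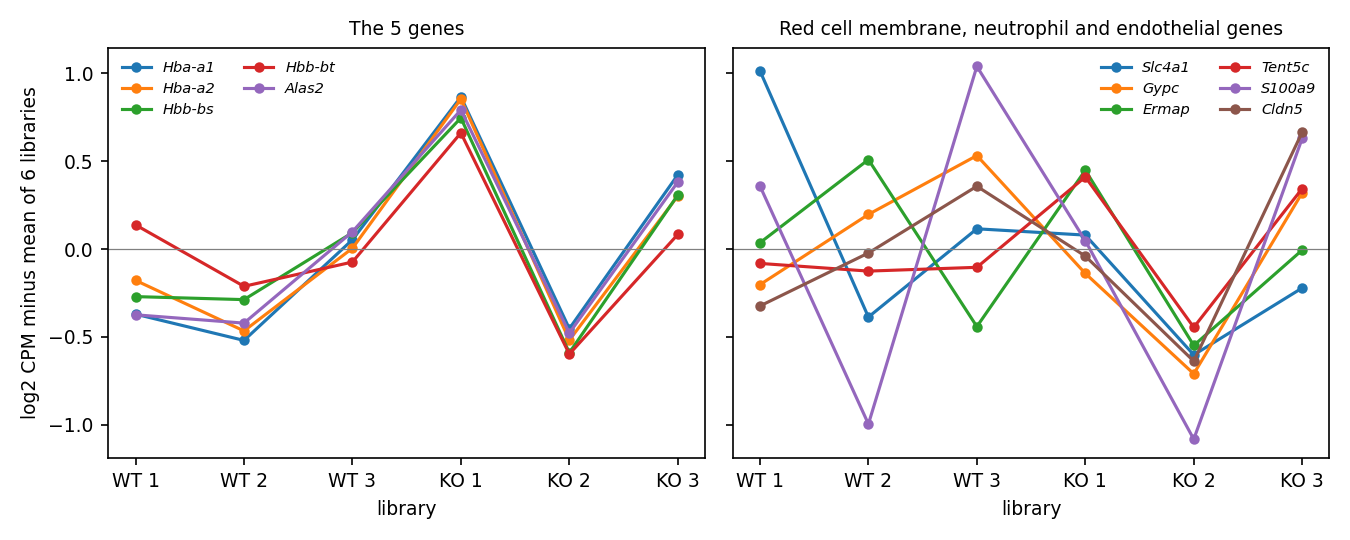
Both panels show log2 CPM minus the mean of the 6 libraries, by library, with lines joining the values of a gene; the left panel holds the 5 genes and the right panel 6 red cell, neutrophil and endothelial genes chosen after their values were seen. The 5 genes form nearly 1 line that peaks at KO 1; on the right Tent5c is also highest at KO 1 and lowest at KO 2, Slc4a1 peaks at WT 1 and S100a9 at WT 3.

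The balance of alpha to beta, unlike the amounts, did not overlap between the groups. Alpha counts made up 43.1%, 40.6% and 43.7% of hemoglobin counts in the WT libraries, and the KO libraries had 46.5%, 46.6% and 46.2%. Every KO library lay above every WT library. The exact 95% binomial (Clopper-Pearson) interval was 42.3% to 45.2% for WT 3, the highest of its group, and 45.0% to 47.5% for KO 3, the lowest of its group, so these neighbours overlapped in counting error. The intervals cover counting error alone. Alpha counts per beta count came to 0.740 ± 0.0486 for WT and 0.868 ± 0.00757 for KO (SD, n = 3). The difference of 0.128 lay between 0.1004 (without WT 2) and 0.146 (without WT 3) when 1 library was left out at a time, and was 0.145 without WT 3 and KO 1. No test was run on this ratio, and its comparison between the groups was added after the values were seen. Among all single genes tested, 14.4% showed groups that do not overlap.

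The difference was larger for Hba-a1 than for Hba-a2, which was not tested. Hba-a1 counts per Hbb-bs count were 0.631, 0.575 and 0.657 in the WT libraries, and the KO libraries had 0.735, 0.743 and 0.732, without overlap. Hba-a2 counts per Hbb-bs count were 0.166, 0.137 and 0.146 in the WT libraries, and the KO libraries had 0.168, 0.163 and 0.155, with overlap. That overlap came from WT 1 alone. Without WT 1 the log2 fold changes of the 2 alpha genes were also closer, at 0.58 for Hba-a1 and 0.53 for Hba-a2. Measures of library make-up also did not overlap between the genotypes. Reads in no gene made up 50.3% to 52.2% of mapped reads in WT and 48.6% to 49.8% in KO, and reads mapping to several places 4.61% to 5.16% in WT and 5.25% to 5.60% in KO. The GC content of the main transcript was 57.2% for Hba-a1 and 51.3% for Hbb-bs. Genes with a GC content of 56.5% to 57.5% had a median log2 fold change of 0.077 (744 genes), and genes of 50.5% to 51.5% one of 0.020 (1036 genes). The gap between those medians corresponds to 1.04-fold, and the ratio of alpha to beta in KO over that in WT was 1.17-fold. The part of library make-up in the ratio was not tested.

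**Figure D5:**
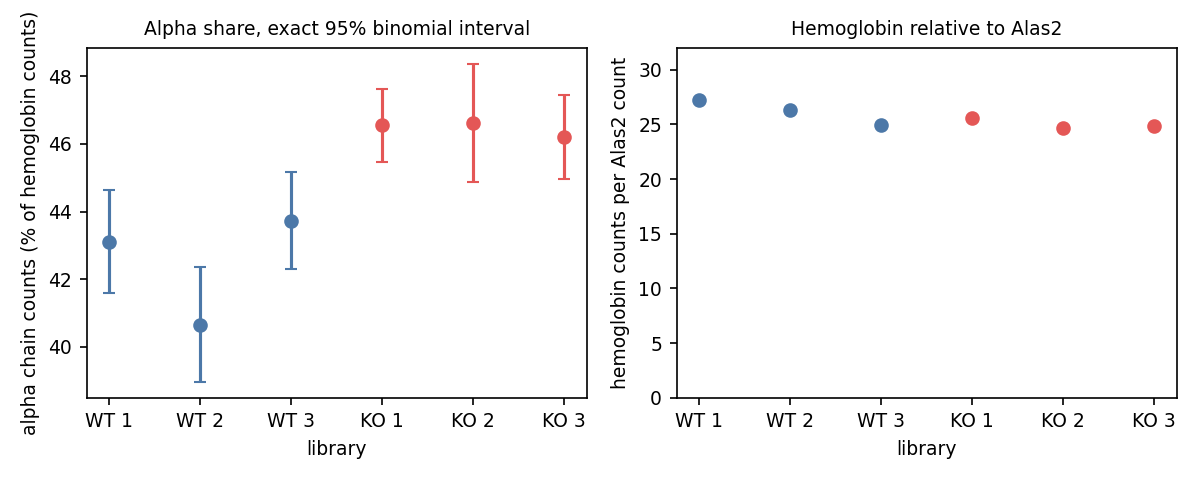
The left panel shows alpha chain counts as a percentage of hemoglobin counts in each library with exact 95% binomial intervals, on an axis that does not start at 0; the right panel shows hemoglobin counts per Alas2 count, from 0. KO libraries (red) lie at 46.2% to 46.6% and WT libraries (blue) at 40.6% to 43.7% on the left, and all 6 libraries lie between 24.7 and 27.2 on the right.

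Counts on the opposite strand were nearly absent for hemoglobin and frequent for Alas2. The 4 hemoglobin genes together had 4 such counts in the 6 libraries, 1 for Hba-a1 and 3 for Hbb-bs. Alas2 had 534 to 618 opposite-strand counts in WT and 546 to 622 in KO, more than on its own strand in every library. Apex2 (ENSMUSG00000025269.16), which encodes a DNA repair nuclease, lies on the minus strand at chrX:150519519-150589868 and spans all of Alas2. Apex2 counts came to 1345, 1304 and 1192 for WT against 1188, 1200 and 1278 for KO. Its order of libraries was not that of Alas2. When strand was ignored, the log2 fold change of Alas2 was 0.11 in place of 0.54, and that of Hba-a1 was 0.64 either way.

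Of the other globins, only Cygb and Ngb were abundant enough to be tested. The list held 11 genes beside the adult hemoglobin genes, of which 5 (Hba-x, Hbb-bh0, Hbb-bh1, Hbb-bh2 and Hbb-bh3) had 0 counts in all 6 libraries, and a count of 0 allows up to 3, which is 0.0957 CPM in the shallowest library. Hbb-y, an embryonic beta-like globin, had 3 counts in KO library 2 and 0 elsewhere. The theta-like genes Hbq1a and Hbq1b, neighbours of the alpha genes, had 4 to 11 and 2 to 8 counts. Cytoglobin (Cygb), found in fibroblast-like cells and some neurons, had a WT mean of 45.8 ± 1.22 CPM and a KO mean of 48.4 ± 3.24 CPM. Neuroglobin (Ngb), a globin of neurons, had means of 4.09 ± 0.0341 and 3.92 ± 0.226 CPM (SD, n = 3). Of the 2 genes of this list that were tested, 0 were called in edgeR's fit, and 0 without adjustment.

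Beside Alas2, heme synthesis was read through its other enzymes. All 8 other enzymes of the pathway were tested and 0 were called in either direction, also 0 without adjustment, with 4 fold changes above 0 and 4 below and a median of -0.0029. Alas1, which carries out the same step outside red cells, had a WT mean of 54.4 ± 3.14 CPM and a KO mean of 53.3 ± 0.644 CPM (log2 fold change -0.028). Fech, which inserts the iron, had means of 63.6 ± 1.94 and 61.6 ± 3.11 CPM, Cpox 35.0 ± 2.45 and 33.7 ± 2.61 CPM, and Ppox 23.0 ± 1.55 and 23.3 ± 0.911 CPM (SD, n = 3). Among 16 genes of heme and iron handling, 14 were tested and 0 were called, with 1 above and 1 below at an unadjusted p under 0.05, where 4.54% of all genes were above and 3.38% below. The one above was Ftl1, the light ferritin chain, which had a WT mean of 48.9 ± 3.42 CPM and a KO mean of 58.8 ± 6.60 CPM (edgeR adjusted p = 0.576), and the one below Slc40a1, the iron exporter (log2 fold change -0.31, edgeR adjusted p = 0.579). The transferrin receptor Tfrc, through which cells take up iron, had a WT mean of 121.3 ± 8.87 CPM and a KO mean of 104.6 ± 18.4 CPM. The heme-degrading enzyme Hmox1, named after its values were seen, stood between 2.31 and 2.74 CPM in 5 libraries and at 7.75 CPM in KO 3.

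Whether the 5 genes go with other erythroid genes was read from genes of the red cell membrane and of reticulocytes. Of 25 such genes 1 was not found by symbol, and of the other 24, 15 were tested, with 0 called, 0 at an unadjusted p under 0.05 and a median of -0.019. The most abundant were Sptb at 375.4 ± 18.7 CPM in WT, Ank1 at 264.6 ± 18.8, Epb41 at 238.7 ± 9.88 and Bnip3l at 101.6 ± 5.46 (SD, n = 3). All 4 are known to be expressed by brain cells too. A more restricted member was low. Slc4a1, the anion exchanger of the red cell membrane, had 2.03, 0.734 and 1.06 CPM in the WT libraries, and the KO libraries had 1.04, 0.624 and 0.830 CPM. Slc4a1, named after its values were seen, was highest in WT 1, whereas hemoglobin was highest in KO 1, and like hemoglobin it was lowest in KO 2. Its root mean square difference from the hemoglobin profile was 0.6. Tent5c, a member of the same list, had 0.198, with KO 1 highest and KO 2 lowest as in hemoglobin. Over the 13 tested genes of the list with a mean of at least 1 CPM, the median difference was 0.469, against 0.449 over all genes, and 4 of the 13 lay nearer than that.

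The transcription factors that drive red cell development were scarce where they are specific to it. Gata1 had 3 counts in WT 1, 2 in KO 1 and 0 elsewhere, and Klf1 had 2 to 6 counts per library. Of the 9 factors, 5 were tested and 0 called, with 2 above and 0 below at an unadjusted p under 0.05, where 4.54% of all genes were above. Those were Zfpm1, a cofactor of GATA factors, and Gata2, neither of which passed the adjusted test (edgeR adjusted p = 0.579 for both). Zfpm1 had a WT mean of 19.2 ± 1.10 CPM and a KO mean of 21.9 ± 0.190 CPM, and Gata2 means of 3.99 ± 0.436 and 5.30 ± 0.827 CPM (SD, n = 3). Bcl11a, a repressor of embryonic globin genes that neurons also express, had a WT mean of 100.1 ± 9.002 CPM and a KO mean of 97.2 ± 3.89 CPM. The cells from which the RNA of the 5 genes came were not measured.

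Markers of other blood cells were low, and KO 2, the lowest library in hemoglobin, was also lowest in each of their sums. The 10 platelet genes summed to 4.45, 3.99 and 3.80 CPM in the WT libraries, and the KO libraries had 4.49, 3.62 and 4.48 CPM. The 11 lymphocyte genes summed to 2.47, 2.81 and 3.10 CPM, and the KO libraries had 3.02, 1.81 and 3.38 CPM. The 13 neutrophil genes summed to 11.5, 11.6 and 12.4 CPM, and the KO libraries had 10.3, 8.38 and 13.3 CPM. KO 1, the highest library in hemoglobin, was highest in the platelet sum only. The ranges of WT and KO overlapped in all 3 sums. Each sum was led by a gene that other cells may express, such as Itga2b for platelets (WT mean 2.27 ± 0.270 CPM, KO mean 2.51 ± 0.223 CPM, SD, n = 3) and Csf3r for neutrophils, which microglia also express (WT mean 6.75 ± 1.49 CPM, KO mean 6.21 ± 1.24 CPM). The neutrophil gene S100a9 was highest in WT 3, at 1.49 CPM. In each of these 3 lists edgeR called 0 genes, and 0 passed without adjustment. The median log2 fold changes were -0.055 for platelets, -0.21 for lymphocytes and -0.11 for neutrophils. A lowest sum in KO 2 was not particular to blood cell markers. Microglial markers summed to 194.7 CPM in KO 2, against 199.9 to 250.8 CPM elsewhere. The heme and iron handling genes also summed lowest in KO 2 (984.8 CPM). Sums of neuronal, astrocyte and oligodendrocyte markers were lowest in KO 3, and those of heme synthesis and red cell membrane genes in WT 3. The part of blood content as a whole in the hemoglobin levels was not tested.

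Endothelial genes, which mark the vessels that hold the blood, summed to 435.3, 439.6 and 434.3 CPM in the WT libraries, and the KO libraries had 430.6, 474.7 and 463.1 CPM. KO 2, lowest in hemoglobin, was highest in this sum, but its place rested on 1 gene. In KO 2 the glucose transporter Slc2a1 had 129.2 CPM, against 60.1 to 73.9 CPM elsewhere. Without Slc2a1, left out after its values were seen, the sums were 364.8, 374.6 and 374.2 CPM in the WT libraries, and the KO libraries had 356.7, 345.5 and 399.3 CPM, which makes KO 2 the lowest, as in hemoglobin. In KO 2, 7 of the 14 genes were at their lowest, among them Cldn5 and Pecam1, which encode junction proteins of endothelium. Others went the other way, as Ly6c1 (18.2 CPM) and Abcb1a (44.65 CPM) were, like Slc2a1, highest in KO 2. KO 1, highest in hemoglobin, was below every WT library in both sums. Of the 14 genes edgeR called 0, and 1, Slc2a1, passed without adjustment (7.92% of all genes did), with a median of 0.054 over the list. Choroid plexus genes summed to 899.4, 830.3 and 885.0 CPM in the WT libraries, and the KO libraries had 1024, 975.7 and 825.9 CPM. Ttr, the thyroid hormone carrier of that tissue, had a WT mean of 293.4 ± 27.3 CPM and a KO mean of 358.9 ± 33.99 CPM (SD, n = 3, edgeR adjusted p = 0.576). Of the 10 choroid plexus genes edgeR called 0, and 2 passed without adjustment, where 7.92% of all genes did. Their fold changes were above 0 for 9 of 10, with a median of 0.18, where 50.1% of all genes lay above 0. The 4 lists of brain cell markers, with 6 genes each, had 0 called genes, and their median log2 fold changes were -0.0021 for neurons, -0.014 for astrocytes, -0.096 for oligodendrocytes and -0.089 for microglia. Without adjustment 0 neuronal genes passed, 1 astrocyte gene above and 1 below, 1 oligodendrocyte gene below and 1 microglial gene below, against the same 7.92% of all genes. The part of vessel or choroid plexus content in the hemoglobin levels was not tested.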

How the data were processed

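Long RNA of 6 whole-brain libraries, 3 KO and 3 WT, was analysed. The authors deposited 1 table of whole-number read counts per library, in the layout of STAR's gene counts. Per the submitters' processing notes, cutadapt 1.9.1 and STAR 2.7.0f were used. The genome build is not given in the sources used here; all 55450 gene identifiers match GENCODE M21 (GRCm38), which gave symbols, positions and lengths. The column holding between 94.6% and 94.8% of the stranded counts was used. Reads mapping to several places are not in it.

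Genes were filtered with filterByExpr, scaled with TMM and tested with edgeR 4.0.16 (quasi-likelihood, R 4.3.3) over all 21237 genes, with Benjamini-Hochberg adjustment and a threshold of 0.05. The 95% intervals are the log2 fold change ± SE times the quantile of the t distribution with the fit's degrees of freedom. CPM are the counts over the TMM-scaled library size, and log2 CPM used a prior count of 2. The SE is the log2 fold change divided by the square root of F. DESeq2 1.42.0 and limma 3.58.1 were alternatives. The labels state biological triplicates and no more on their source, so p-values measure the spread between these libraries.

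The 5 genes and the gene lists were chosen with earlier results of these data known. The genes open to naming were, in each list, the 4 outside the 5 with the highest mean CPM, any gene called, genes at or near 0, and the 5 nearest in profile. Of these the text gives the ones a result turns on, and the other genes it names were chosen after their values were seen. Promoter windows are from RefSeq on GRCm38.p6 and matched all 5 symbols. The measurement for which WT 3 and KO 1 were left out together is not reported here.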

Additional observations from a re-analysis of the deposited data

How the results depend on the processing

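Leaving out the filter on low counts called 298 genes in all and 4 of the 5 genes, with log2 fold changes of 0.64 for Hba-a1, 0.53 for Hba-a2, 0.41 for Hbb-bs and 0.55 for Alas2 (edgeR adjusted p = 3.19e-21, 7.31e-05, 2.57e-09 and 0.0091); the prior degrees of freedom were infinite there. The DESeq2 Wald test called 26 genes in all, and gave no adjusted p for Hba-a2, Hbb-bt and Alas2. The fit with a replicate block called 4 genes in all and 0 of the 5, with log2 fold changes of 0.57 for Hba-a1 and 0.32 for Hbb-bs; deviations of same-numbered libraries correlated at 0.0026, -0.067 and -0.106, so the numbers gave no sign of pairing. Leaving out 1 library at a time, between 2 and 5 genes were called in all, 5 without KO library 3, and 0 of the 5 in each. The change of Hbb-bt was -0.18 without KO library 1, against 0.44 without KO library 2, and -0.19 without WT library 3 and KO library 1, a setting chosen after seeing the data. The cause of these differences was not tested. The other scalings, limma-voom, a mean count of at least 50 and the unstranded column called the same number of genes, 2, and 0 of the 5. The leave-one-out and unstranded values of the alpha to beta difference were also added after seeing the data. Low unique coverage limits Hba-a1 and Hba-a2, and counts of 62 to 156 limit Hbb-bt.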
